A study of Mus musculus with 59 samples.

Results

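The aryl hydrocarbon receptor (AhR) is a ligand-activated transcription factor of the bHLH-PAS family. In the cytosol it is held in a chaperone complex, and after binding a planar aromatic ligand it enters the nucleus and pairs with its partner ARNT. The pair binds xenobiotic response elements and induces enzymes that oxidise such ligands, and it also induces 2 of its own brakes, the AhR repressor (Ahrr), which competes for ARNT, and Tiparp, a mono-ADP-ribosyltransferase that limits the receptor's activity. Described here are the 5 genes Ahr, Arnt, Ahrr, Tiparp and Aldh3a1, the last of which encodes an aldehyde dehydrogenase that is a known target of the receptor in some cells and a constitutive protein of some squamous epithelia. They were chosen by name, and every probe whose listed transcript accession belongs to 1 of them was taken, which gave 10 of 55681 probes and 5 of 37163 annotated genes or transcripts. Each gene had 2 probes, numbered here so that probe 1 is the one with the higher mean Cy5 signal.

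Adult male Muta™Mouse animals (a transgenic mutation reporter line), 16 weeks old, received benzo(b)fluoranthene (BbF) by oral gavage on each of 28 days at 25 (low), 50 (medium) or 100 (high) mg/kg-bw/day, and vehicle mice (0 mg/kg-bw/day) received olive oil. Lung, liver and forestomach were collected 72 h after the last dose, and RNA of each tissue (Cy5) was hybridised against universal mouse reference RNA (Cy3) on 2-colour Agilent arrays with no dye swap. Sample titles and the protocol give the agent as BbF, whereas 1 other label field and the series' design give benz(a)anthracene, and the doses are those the methods give for BbF. There were 5 mice per dose group, the same 20 mice in every tissue, except that the lung of low-dose mouse 7 was not analysed here, which left 19 lung, 20 liver and 20 forestomach arrays. All groups shared strain, sex and carrier, and RNA came from random slices of whole tissue. In such bulk samples fewer cells of a type and less RNA per cell cannot be told apart.

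Values are log2(Cy5/Cy3), the tissue's level relative to the reference RNA, and they can be compared between arrays for 1 probe but not between probes. A difference is called when its Benjamini-Hochberg adjusted p over all 55681 probes is at most 0.05 and the change is at least 1.5-fold. Tissue labels were checked against marker lists. Alveolar type II genes lay at 5.34 to 6.06 in lung and below 0 elsewhere, hepatocyte genes at 5.44 to 6.58 in liver, 0.11 to 0.31 in lung and 0.10 to 4.23 in forestomach, where medium-dose mouse 12 was highest, and squamous epithelium genes at 4.03 to 4.62 in forestomach. The lung array of low-dose mouse 6 stood apart with squamous genes at 2.67, against -0.54 to -0.25 in the other lung arrays, and that of vehicle mouse 4 with glandular stomach genes at 1.91, against 0.28 or less in the others. The lung array of medium-dose mouse 13 had 68.8% of probes well above background in Cy5, against 44.8 to 52.7% in the other lung arrays. The glandular stomach genes varied between 0.36 and 6.54 among forestomach arrays. Club cell genes were highest in lung, at 6.97 to 7.70, but did not mark it alone. They lay at 4.45 to 5.49 in forestomach and at 2.65 to 3.55 in liver. In liver the 8 arrays of the third slide, which held 1 vehicle and 3 high-dose mice, had 10.7 to 12.9% of probes well above background in Cy5, against 37.1 to 46.1% on the other liver slides, and liver values without that slide are given beside the results it touches most. Without it only mice 16 and 17 remained in the high-dose liver group.

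The upstream sequence of the feedback genes is shown first because the receptor's core element can be read in it. RefSeq start-site windows of 300 bases (GRCm38.p6, 250 bases before to 50 after the start) were given for 3 of the 5 members, Ahrr, Tiparp and Arnt. The windows were searched on both strands for GCGTG, the core of the xenobiotic response element, and for TNGCGTG, which contains it. Capitals mark GCGTG, or CACGC where the match is on the other strand.
Ahrr, chr13:74292282-74292581, minus strand: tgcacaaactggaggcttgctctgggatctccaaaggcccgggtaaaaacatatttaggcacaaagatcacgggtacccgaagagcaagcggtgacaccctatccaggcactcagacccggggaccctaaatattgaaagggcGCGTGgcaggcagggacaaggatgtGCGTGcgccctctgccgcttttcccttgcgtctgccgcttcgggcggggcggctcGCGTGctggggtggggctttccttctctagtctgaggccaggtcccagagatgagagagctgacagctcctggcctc
Tiparp, chr3:65528197-65528496, plus strand: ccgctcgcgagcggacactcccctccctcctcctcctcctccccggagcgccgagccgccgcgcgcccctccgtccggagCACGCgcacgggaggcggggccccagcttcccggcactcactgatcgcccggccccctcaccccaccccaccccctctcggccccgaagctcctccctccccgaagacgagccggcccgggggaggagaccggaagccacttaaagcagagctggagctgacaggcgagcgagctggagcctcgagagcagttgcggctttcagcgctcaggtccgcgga
Arnt, chr3:95434140-95434439, plus strand: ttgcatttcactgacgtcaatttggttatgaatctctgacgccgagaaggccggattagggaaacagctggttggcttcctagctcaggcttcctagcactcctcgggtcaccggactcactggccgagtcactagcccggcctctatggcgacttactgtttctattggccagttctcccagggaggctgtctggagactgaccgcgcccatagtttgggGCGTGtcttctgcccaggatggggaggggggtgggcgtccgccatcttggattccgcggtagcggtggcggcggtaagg
The Ahrr window held GCGTG 3 times, starting 107, 82 and 27 bases before the start site, and the last of these was also a TNGCGTG match. The Tiparp window held 1 match, on the other strand, between 170 and 166 bases before the start, and the Arnt window held 1, starting 29 bases before it. Of 32851 promoter windows of this length, 32.4% held GCGTG at least 1 time, 3.91% held it 3 times or more, and 5.07% held TNGCGTG. These matches describe letters and were not tested as binding sites.

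Ahrr was the member that changed most with dose, and it did so in lung. Its probe 1 (A_51_P254425) read -0.52, -0.14, -0.54, -0.46 and -0.51 in the lungs of vehicle mice 1 to 5, where only mouse 2 was well above background. The 4 low-dose lungs (mice 6, 8, 9 and 10) read 0.30, 0.62, 0.44 and 0.90. The medium-dose lungs (mice 11 to 15) read 0.96, 1.30, 0.41, 1.00 and 1.76, and those of the high dose (mice 16 to 20) read 1.56, 3.34, 1.12, 3.58 and 3.94. All 14 treated lungs therefore lay above all 5 vehicle lungs, and within the high-dose group mice 17, 19 and 20, at 3.34 or more, lay apart from mice 16 and 18, at 1.56 or less. Lists of other cell types overlapped between vehicle and high-dose lungs, with alveolar type II genes at 5.52 to 5.72 and 5.46 to 5.85, endothelial genes at 5.20 to 5.71 and 5.55 to 6.09, and leukocyte genes at 1.04 to 1.85 and 1.18 to 1.75. Within slides, however, the mean of the 4 endothelial genes was higher in every high-dose lung than in every vehicle lung. Its group means were higher by 0.29, 0.29 and 0.37 on slides 1 to 3. The mean of the 4 listed muscle genes differed by -0.62, -0.39 and -0.11 on slides 1 to 3, without overlap on slides 1 and 2. The part of these lists in the Ahrr result was not tested.

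**Figure D1:**
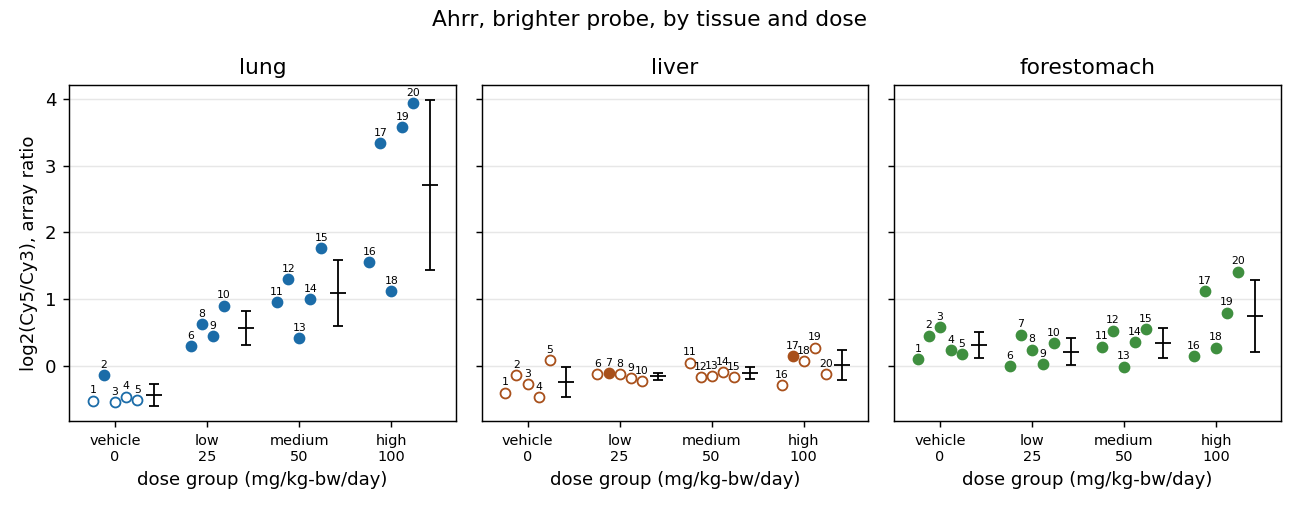
log2(Cy5/Cy3) of Ahrr probe 1 (vertical axis) by dose group (horizontal axis, mg/kg-bw/day) in lung, liver and forestomach. Each point is the array of 1 mouse, labelled with its number, open where the probe was not well above background in Cy5, and the bar beside each group is its mean ± SD. Lung means run from -0.43 in vehicle mice to 2.71 at the high dose, while all liver points lie between -0.47 and 0.27.

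The lung mean of Ahrr was -0.43 ± 0.17 (SD, n = 5) in vehicle mice, 0.57 ± 0.26 (n = 4) after the low dose, 1.09 ± 0.50 (n = 5) after the medium dose and 2.71 ± 1.27 (n = 5) after the high dose. The high-dose difference was 3.14 ± 0.39 (SE), which is 8.82-fold, with an adjusted p of 5.6e-05, against a vehicle level that was well above background in 1 of 5 lungs. The medium-dose difference of 1.52 ± 0.39 was called at an adjusted p of 0.0494, just inside the threshold. Without 1 mouse at a time that p ran from 0.0143 to 0.139, and it missed the threshold when any 1 of mice 1 to 6, 8 to 12, 14, 15 or 17 was left out. It was also missed with slide as a block (1.23, adjusted p = 0.0781), with median centring and in the deposited processed ratios. The low-dose difference of 1.00 ± 0.42 did not pass (adjusted p = 0.447), although all 4 lungs lay above every vehicle lung. Groups did not overlap in that direction for 2.24%, 1.75% and 3.55% of all probes in low-, medium- and high-dose lungs.

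The slope of Ahrr over dose in lung was 3.07 ± 0.37 from 0 to 100 mg/kg-bw/day (adjusted p = 2.3e-05). The step from medium to high dose was 1.62 ± 0.39 and did not pass (adjusted p = 0.0970), but it was called with slide as a block, and without mouse 16 or mouse 18. The step from low to medium did not pass. Within each of the 3 lung slides the high-dose mean exceeded the vehicle mean, by 2.78, 1.62 and 4.27, so the direction was the same on every slide. Ahrr probe 2 (A_55_P2128388) was well above background on 2 arrays only, the lungs of high-dose mice 19 and 20, at 0.69 and 0.81. Its high-dose lung difference of 0.38 ± 0.13 did not pass (adjusted p = 0.0785).

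In liver Ahrr probe 1 was near background: it was well above it on 2 of 20 arrays, and values ran from -0.47 to 0.09 in vehicle mice and from -0.29 to 0.27 at the high dose. The high-dose difference of 0.25 ± 0.11 did not pass (adjusted p = 0.614). The gene was measured well above background in all 20 forestomachs. There the vehicle mice read 0.11, 0.45, 0.58, 0.24 and 0.18 and the high-dose mice 0.15, 1.12, 0.27, 0.80 and 1.41. Mice 17, 19 and 20 again held the 3 highest values, above every vehicle mouse, while mice 16 and 18 lay among the vehicle values. The forestomach difference of 0.44 ± 0.19 did not pass (adjusted p = 0.524).

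The difference in response between tissues was tested directly. The high-dose change of Ahrr was larger in lung than in liver by 2.89 ± 0.44 (adjusted p = 0.000959), a comparison in which 0.312% of all probes were called, and larger in lung than in forestomach by 2.70 ± 0.47 (adjusted p = 0.000944), where 0.763% were called. Behind the comparison with liver the probe was well above background in 0 of 5 vehicle livers, 1 of 5 high-dose livers and 1 of 5 vehicle lungs, so the size of the liver change is not well measured. Liver and forestomach differed by -0.19 ± 0.23 (95% interval -0.64 to 0.27), which did not pass, and 0.0269% of probes were called there. Ahrr probe 1 was the only member probe called in either comparison with lung.

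Tiparp rose in lung at the high dose, by both of its probes. Probe 2 (A_55_P1985890) read 0.48, 0.29, 0.27, 0.37 and 0.18 in the lungs of vehicle mice 1 to 5, 0.13 to 0.37 at the low dose and 0.07 to 0.43 at the medium dose. The high-dose lungs read 0.50, 1.38, 0.30, 1.27 and 1.58 for mice 16 to 20. Mice 17, 19 and 20 stood clear of all vehicle lungs, mouse 16 lay just above the highest of them (0.50 against 0.48), and mouse 18 lay among them. Probe 1 (A_51_P514961) had the same 3 mice highest, with 0.46, 0.45 and 0.69 in mice 17, 19 and 20, -0.79 and -0.54 in mice 16 and 18, and -0.85 to -0.48 in vehicle lungs.

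**Figure D2:**
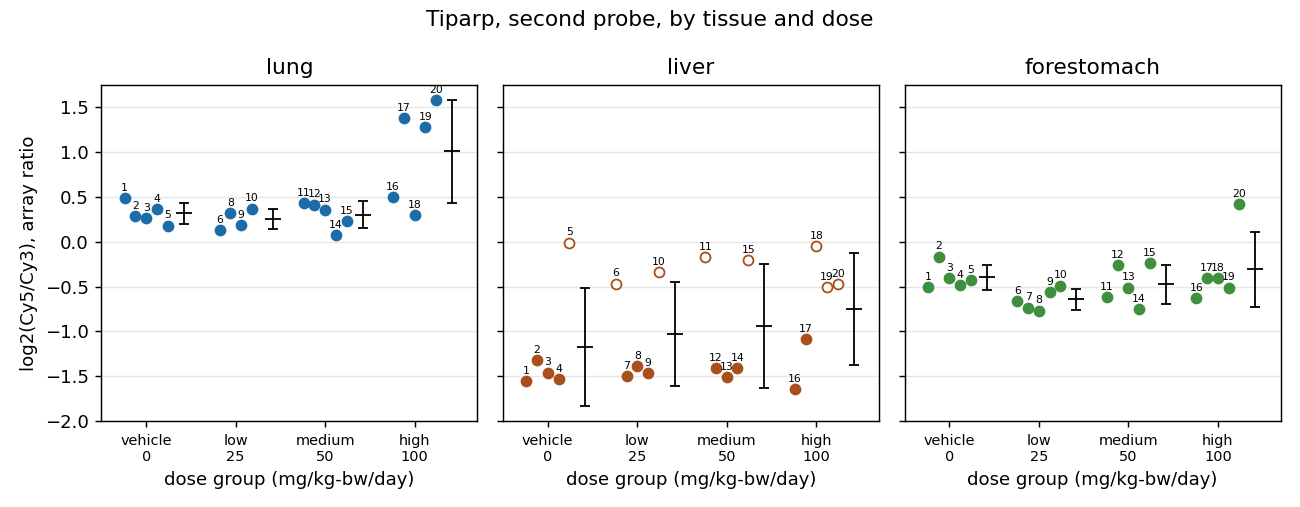
log2(Cy5/Cy3) of Tiparp probe 2 (vertical axis) by dose group (horizontal axis, mg/kg-bw/day) in lung, liver and forestomach. Points are mice, open where not well above background, with mean ± SD beside each group. In lung 3 of 5 high-dose mice lie between 1.27 and 1.58 while all other lungs lie at 0.50 or less, and in liver the arrays of the third slide form the open upper points.

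The high-dose lung difference was 0.69 ± 0.18 for probe 2 (1.61-fold, adjusted p = 0.0213) and 0.71 ± 0.20 for probe 1 (1.64-fold, adjusted p = 0.0361), and with median centring these were 1.08 and 1.12, also called. Both slopes over dose were called as well, at 0.72 ± 0.18 (adjusted p = 0.0212) and 0.75 ± 0.20 (adjusted p = 0.0323). The calls rested on few mice. Probe 2 missed the threshold when mouse 17, 19 or 20 was left out, with differences down to 0.55 and an adjusted p up to 0.0726, and probe 1 missed it when 1 of these or any 1 vehicle mouse was left out, with an adjusted p up to 0.111. With slide as a block the slope of probe 1 missed it too (adjusted p = 0.0509). Within lung slides 1 to 3 the high-dose mean minus the vehicle mean was 0.55, -0.02 and 1.25 for probe 2. For probe 1 it was 0.41, 0.24 and 1.15. The only high-dose lung on slide 2 was that of mouse 18. At the low and medium doses the differences lay between -0.07 and -0.01 and did not pass.

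In forestomach Tiparp probe 2 read -0.51 to -0.17 in vehicle mice, and at the high dose mouse 20 stood out at 0.42 while the other 4 lay between -0.63 and -0.40. The difference of 0.09 ± 0.15 did not pass (adjusted p = 0.917). In liver probe 1 differed by 0.80 ± 0.48 at the high dose (adjusted p = 0.693), and by 0.26 without the third slide, on which all Tiparp values were below background and lay nearer 0. The lung and forestomach changes of probe 2 differed by 0.60 ± 0.24 (95% interval 0.10 to 1.09, adjusted p = 0.326), so a difference between tissues was not shown for Tiparp.

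Counted over all 10 member probes, 3 were called at the high dose in lung, all higher, namely Ahrr probe 1 and both Tiparp probes, where 1.45% of all probes were called and 1.03% were called higher. The trend over dose called the same 3 (1.23% of all probes, 0.882% higher). At the medium dose Ahrr probe 1 alone was called (0.469% of all probes, 0.365% higher), and at the low dose no member probe was (0.345% of all probes), with 1 of 10 at an unadjusted p below 0.05 in limma, beside 9.07% of all probes. No member probe was called between low and medium dose or between medium and high dose in lung, where 0% and 0.183% of all probes were called, with 0 and 4 of 10 at an unadjusted p below 0.05, beside 4.73% and 9.03% of all probes.

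No member probe was called at any dose or in the trend in liver or forestomach. In liver 0%, 0% and 0.00359% of all probes were called at the 3 doses, and in forestomach 0%, 0% and 0.07%, with 0.00898% and 0.0611% in the trends. Between neighbouring doses no member probe was called in these tissues either, with 0% of all probes called in liver, and in forestomach 0.00359% from low to medium and 0% from medium to high. At the high dose 2 of 10 member probes had an unadjusted p below 0.05 in limma in each of these tissues, Arnt probe 1 and Ahrr probe 1 in both, beside 7.46% of all probes in liver and 8.7% in forestomach. At the low and medium doses 0 and 0 had one in liver (3.41% and 4.53% of all probes) and 0 and 1 in forestomach (4.62% and 5.68%), and in each trend 2 did (8.34% and 8.57%). The liver counts over all probes moved with the third slide, from 2 at the high dose to 138 with slide as a block and 416 without that slide, and the count of member probes stayed at 0 in both settings. Without that slide the high-dose liver group was mice 16 and 17 only.

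The receptor itself, Ahr, was not called at any dose. Probe 1 (A_55_P2109613) read 1.45, 1.93, 1.59, 1.82 and 1.54 in vehicle lungs and 1.42, 1.27, 1.67, 1.17 and 1.25 in high-dose lungs. So 4 of 5 high-dose lungs lay below every vehicle lung, the exception being mouse 18. The difference was -0.31 ± 0.11 (adjusted p = 0.125), below 1.5-fold, and its sign depended on the scaling: it was 0.18 with median centring, under which 3504 probes were called in place of 807. At the low and medium doses the lung differences were -0.09 each. In forestomach the high-dose difference was -0.08 ± 0.10, and in liver -0.36 ± 0.28 with all arrays (-1.57 with median centring) and 0.04 without the third slide. Probe 2 of Ahr (A_65_P06603) was well above background on 2 of 59 arrays and gives no usable level.

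The partner gene Arnt, which the receptor shares with the hypoxia factors, was not called at any dose in any tissue. Probe 1 (A_55_P2100895) lay between 0.09 and 0.48 in vehicle lungs and between 0.15 and 0.63 in high-dose lungs, a difference of -0.02 ± 0.09 (95% interval -0.21 to 0.18). In forestomach the 5 high-dose values, -0.42 to -0.31, all lay above the 5 vehicle values, -0.80 to -0.45, by a difference of 0.21 ± 0.09 that did not pass (adjusted p = 0.479). Groups did not overlap in that direction for 1.13% of all probes. Probe 2 (A_55_P2100899) differed there by -0.02 ± 0.09, so the probes of this gene did not move together.

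Aldh3a1, often used as a sign of AhR activity in cultured cells, did not pass in any dose comparison. In lung probe 1 (A_55_P2101216) read 0.99, 1.53, 0.20, 0.85 and 0.70 in vehicle mice and 0.70, 0.24, 0.01, -0.01 and 1.08 in high-dose mice, which overlap. The difference was -0.45 ± 0.28 (adjusted p = 0.426) for probe 1 and -0.29 ± 0.26 for probe 2 (A_55_P2065562), and -0.61 ± 0.28 at the medium dose (adjusted p = 0.322). With median centring the high-dose value was 0.03. The 3 high-dose mice with the highest Ahrr, 17, 19 and 20, read 0.24, -0.01 and 1.08, so the order of Ahrr was not that of Aldh3a1.

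The highest lung value of Aldh3a1, 1.71 for probe 1 and 1.40 for probe 2, was in low-dose mouse 6, the lung array with squamous genes at 2.67 and 6 of 8 of them well above background. In the next highest lung, vehicle mouse 2 at 1.53, the squamous list lay at -0.39. Without mouse 6 the other 3 low-dose lungs read 0.14, -0.01 and 0.60. The part of squamous tissue in these values was not tested.

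**Figure D3:**
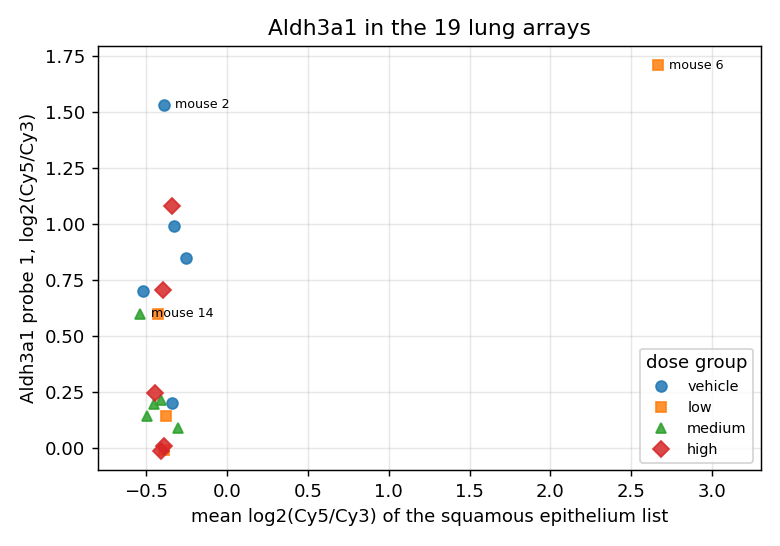
Aldh3a1 probe 1, log2(Cy5/Cy3) (vertical axis), against the mean log2(Cy5/Cy3) of the 8 squamous epithelium genes (horizontal axis) in the 19 lung arrays. Each point is 1 mouse and its shape and colour give the dose group. Mouse 6 lies alone at 2.67 and 1.71, while mouse 2 at 1.53 lies among the other lungs on the horizontal axis.

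In forestomach Aldh3a1 was high at every dose, and probe 1 averaged 3.18 ± 0.33 in vehicle mice, 3.06 ± 0.29 in low-dose, 3.28 ± 0.18 in medium-dose and 3.21 ± 0.12 in high-dose mice (n = 5 each). The high-dose difference was 0.03 ± 0.14 (95% interval -0.27 to 0.34), an interval that leaves out a 1.5-fold change. In liver probe 1 read -1.37 to -1.16 in vehicle mice 1 to 4 and -0.23 in mouse 5, the vehicle array on the third slide. The liver difference at the high dose was 0.57 ± 0.45 with all arrays and -0.10 without that slide.

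Among vehicle mice the tissues differed in Ahr, Aldh3a1 and Tiparp. The probes of Arnt disagreed, and pairs of tissues were called for Ahrr only under alternatives given below. For Ahr probe 1 the order was lung (1.67 ± 0.20), liver (0.86 ± 0.32) and forestomach (-0.35 ± 0.19, n = 5 each), and each neighbouring pair differed: lung over liver by 0.81 ± 0.22 (adjusted p = 0.0032), liver over forestomach by 1.21 ± 0.21 (adjusted p = 2.0e-05), and lung over forestomach by 2.01 ± 0.11 (adjusted p = 9.0e-18). Each lung lay above each liver, and each liver above each forestomach. The share of all probes that separate tissues in this way was not counted, and 18.7 to 23.3% of all probes were called between vehicle tissues. With median centring the differences that involve liver kept their sign but did not pass.

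For Aldh3a1 the order was forestomach, lung and liver. Forestomach read 2.67 to 3.55 with probe 1, lung 0.20 to 1.53 and liver -1.37 to -0.23, with no overlap between tissues. Here too the share of all probes without overlap was not counted. Lung differed from forestomach by -2.32 ± 0.24 (adjusted p = 1.9e-10), and liver by -4.26 ± 0.34 (adjusted p = 1.3e-12). Lung exceeded liver by 1.94 ± 0.39 (adjusted p = 0.00011), and probe 2 was called in the same direction in all 3 pairs. The squamous epithelium, glandular stomach and muscle lists were also highest in forestomach, with vehicle medians there of 4.56, 3.52 and 4.11. The part of these tissues in the order of Aldh3a1 was not tested.

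**Figure D4:**
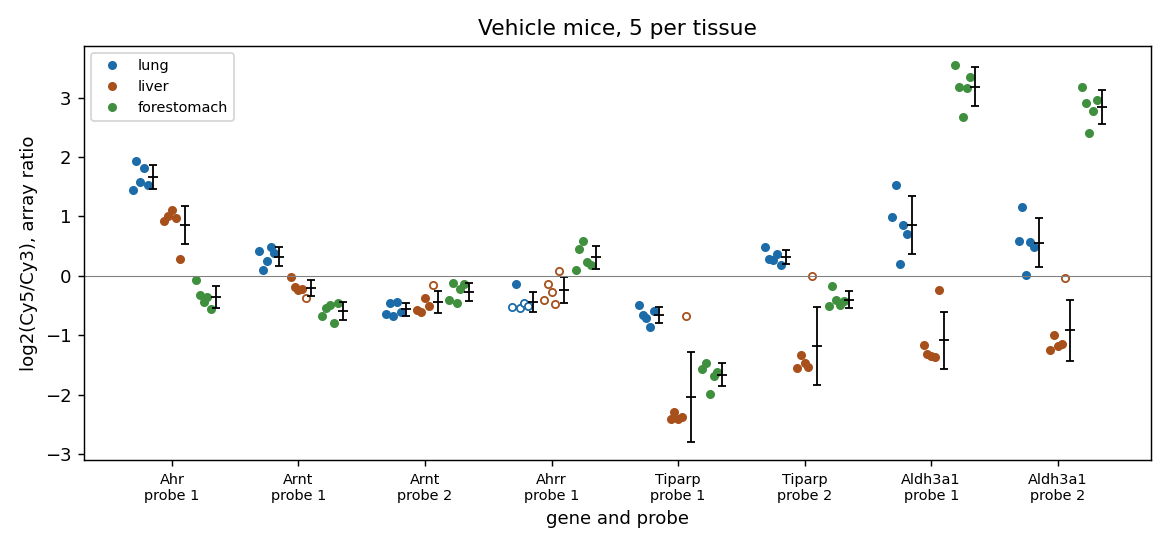
log2(Cy5/Cy3) of 8 member probes (horizontal axis) in the 5 vehicle mice of each tissue (colours), with mean ± SD; open points were not well above background. Within a probe the tissues can be compared, and Aldh3a1 in forestomach at 2.41 to 3.55 lies above lung and liver on both probes, while Ahr probe 1 falls from lung to liver to forestomach.

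Tiparp was highest in lung, above liver by 1.37 ± 0.38 and 1.49 ± 0.31 and above forestomach by 1.00 ± 0.18 and 0.72 ± 0.17 for probes 1 and 2, all 4 of them called. Liver and forestomach are the neighbours that its probes did not separate alike, since the liver minus forestomach difference was -0.78 ± 0.30 for probe 2 (adjusted p = 0.0468) and -0.37 ± 0.36 for probe 1 (adjusted p = 0.516). The probe 2 call was lost when any 1 of mice 1 to 4, 7 to 9, 17 or 19 was left out, and without the third liver slide the difference was -1.07 (adjusted p = 3.9e-07). It was also missed with median centring (-1.04, adjusted p = 0.0828) and in the deposited ratios (-0.70, adjusted p = 0.0662).

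Arnt probe 1 was higher in lung than in forestomach by 0.92 ± 0.09 (adjusted p = 9.9e-11), and higher in lung than in liver by 0.53 ± 0.09 (adjusted p = 1.7e-05), which is under 1.5-fold and was not called. Its probe 2 pointed the other way, with a lung minus forestomach difference of -0.30 ± 0.08, so no order of tissues is given for Arnt. For Ahrr probe 1, which was not well above background in any vehicle liver and in 4 of 5 vehicle lungs, forestomach lay highest at 0.31 ± 0.20. Liver differed from forestomach by -0.55 ± 0.16 (adjusted p = 0.0076, under 1.5-fold), and lung by -0.75 ± 0.33 (adjusted p = 0.0790). With the mouse as a block the lung difference of Ahrr was called, at -0.75 ± 0.19 (adjusted p = 0.0029), and it was called with dim probes left out (adjusted p = 0.0478). Without the third liver slide liver and forestomach differed by -0.63 ± 0.18 for Ahrr probe 1 (adjusted p = 0.0047) and by -0.70 ± 0.14 for Tiparp probe 1 (adjusted p = 9.8e-05), and both were called.

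Counted over member probes, 5 of 10 were called between vehicle lung and liver, all higher in lung, where 23.3% of all probes were called. Between lung and forestomach 6 of 10 were called, 4 higher in lung and the 2 of Aldh3a1 lower, against 19.6% of all probes. Between liver and forestomach 4 of 10 were called, Ahr probe 1 higher in liver and Tiparp probe 2 and both Aldh3a1 probes lower, against 18.7%. Without the third liver slide 6 of 10 were called there, Ahrr probe 1 and Tiparp probe 1 being added, and lung exceeded liver by 0.66 for Ahr probe 1 and by 1.71 for Tiparp probe 1, both still called.

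The wider pathway was read from a list of 36 genes, all with a probe on the array. At the high dose in lung 3 of 36 were called and all 3 were higher, beside 1.45% of all probes called and 1.03% called higher: Cyp1a1 and Cyp1b1, P450 enzymes induced through the receptor, and Nqo1, a quinone reductase. No gene of the list was called at the low or medium dose in lung, or at any dose in liver or forestomach, where at most 0.00359% and 0.07% of all probes were called. None of the 4 chaperone complex genes, the 4 coregulators, the 9 other bHLH-PAS genes, the 4 relatives of Tiparp or the 5 relatives of Aldh3a1 was called anywhere. The median high-dose difference of the 10 listed AhR targets was -0.06 in lung, 0.41 in liver and 0.46 in forestomach, beside -0.004, 0.008 and -0.004 over all probes. The liver median took in the third slide, with 3 high-dose livers and 1 vehicle liver, and was not computed without it. Cyp1b1, for instance, read -0.36 in vehicle mouse 5 on that slide, against -2.27 to -1.99 in vehicle mice 1 to 4. The part of the slide in the liver median was not tested. In forestomach the glandular stomach list had a median of 3.52 (1.18 to 5.99) in vehicle mice and 5.04 (0.74 to 5.81) in high-dose mice. The part of this list in the forestomach median was not tested either.

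Cyp1a1 in lung read 7.54, 8.94, 5.99, 9.36 and 9.38 in high-dose mice 16 to 20. Vehicle lungs read 2.97, 8.39, 2.06, 2.81 and 2.64, so vehicle mouse 2 lay within the high-dose range and the groups overlapped. The difference was 4.47 ± 1.13 (adjusted p = 0.0202). Vehicle mouse 2 also held the highest vehicle Cyp1a1 in liver (2.84) and forestomach (4.39), and in lung the highest vehicle Ahrr (-0.14) and Cyp1b1 (0.21). In lung the same mouse held the highest vehicle Aldh3a1 probe 1 (1.53), Ahr probe 1 (1.93) and Nqo1 (-0.844, with mouse 4 at -0.849). Its Tiparp probe 2 in lung, 0.29, lay among the other vehicle mice.

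Cyp1b1 rose by 4.44 ± 0.68 (adjusted p = 0.00041), from -1.60 to 0.21 in vehicle lungs to 0.67 to 5.01 at the high dose. Nqo1 rose by 1.25 (adjusted p = 0.0138), with 4 of 5 high-dose lungs above every vehicle lung. In all 5 of Ahrr, Tiparp, Cyp1a1, Cyp1b1 and Nqo1 the lungs of mice 17, 19 and 20 held the 3 highest high-dose values, and mouse 16 was above mouse 18 for each except Tiparp probe 1. The same 3 mice had Cyp1a1 at 6.68, 5.03 and 5.29 in liver, against 0.24 and 0.03 in mice 16 and 18, and at 3.18, 3.13 and 7.33 in forestomach, against 0.74 and 0.49. These are values of single mice and no groups were formed from them.

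**Figure D5:**
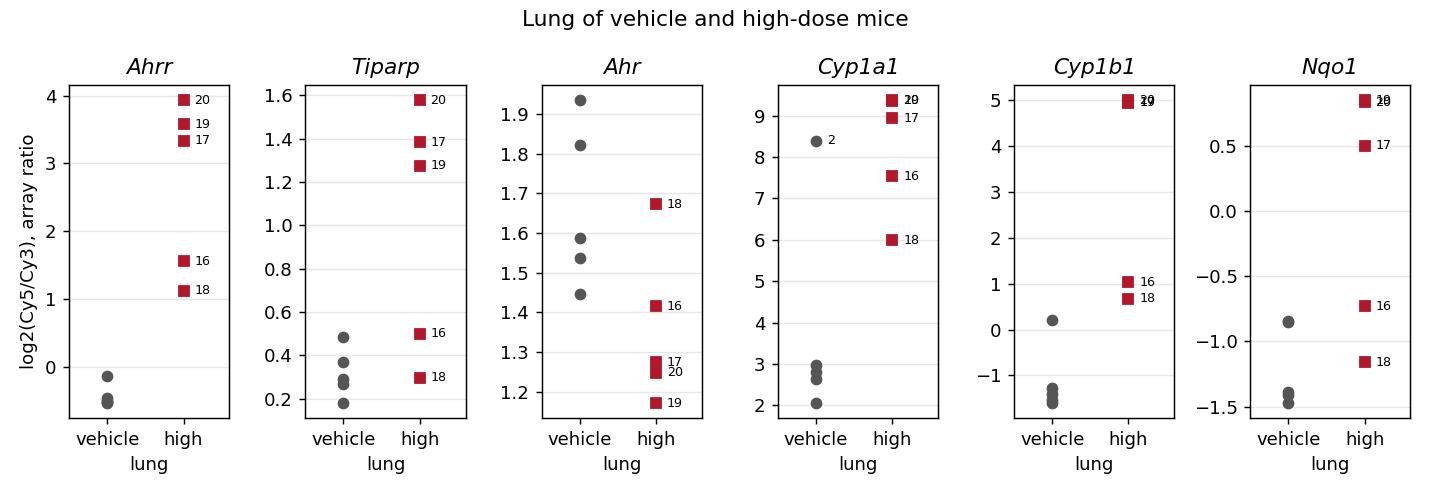
log2(Cy5/Cy3) in lung (vertical axes, scaled separately for each gene) of vehicle mice (grey circles, 5 mice) and high-dose mice (red squares, labelled by mouse number) for Ahrr probe 1, Tiparp probe 2, Ahr probe 1, Cyp1a1, Cyp1b1 and Nqo1. Mice 17, 19 and 20 are the 3 highest high-dose lungs for every gene shown but Ahr, for which they are the 3 lowest, and vehicle mouse 2 reaches 8.39 for Cyp1a1.

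Genes whose pattern was most like each member were sought by Pearson's r of the log2 ratio, with the vehicle mean of each tissue subtracted, over all 59 arrays and 16276 probes of named genes. These arrays share slides, animals and controls, so r is a description. For Ahrr probe 1 the nearest were Inka2 (r = 0.90), Cyp1b1 (0.90) and Ecm1 (0.89), and without the third liver slide (51 arrays) these r were 0.90, 0.95 and 0.90 and Ackr3 came first at 0.96. For Tiparp probe 1 they were Cdr2l (0.90), Abca7 (0.89) and Adgrl1 (0.89), which fell to 0.61, 0.62 and 0.67 without that slide, where Cyp1b1 came first at 0.81. For Aldh3a1 probe 1 Fhl2 was nearest on all arrays (0.90) and without the slide (0.77), followed on all arrays by Slc2a1 (0.88) and Cd14 (0.86). Without the slide Slc2a1 and Cd14 fell to 0.66 and 0.61. For Ahr probe 1 the nearest were Golt1a (0.82), Immp2l (0.81) and Plvap (0.81), at 0.49, 0.47 and 0.44 without the slide, where Ptgds came first at 0.64. For Arnt probe 1 the highest r on all arrays were 0.57 (Epc1), 0.54 (Morf4l1) and 0.52 (Csnk1g2), and these were 0.55, 0.55 and 0.61 without the slide, where Gosr1 came first at 0.68.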

How the data were processed

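Per the file headers, the authors' scanner files came from Feature Extraction 10.7.3.1 on a design annotated on mm9, with 62976 spots and an intensity per channel. The authors used median signals without background subtraction and LOWESS, and their deposited processed table holds log2 ratios whose columns have medians of -0.041 to -0.007 and correlate at 0.967 to 0.999 with the values used here. Here the median intensity of each channel, without background subtraction, was loess-normalised within each array with limma 3.58.1 in R 4.3.3, control spots were left out and spots of 1 probe averaged, which gave 55681 probes, 26413 of them named through their accession. The MAANOVA test of the methods was replaced by limma with Benjamini-Hochberg adjustment, in a fit of the 4 dose groups of each tissue, a fit of dose as a slope, and fits of each tissue pair. A probe is well above background by the scanner's flag, and the depth of an array cannot be given, so the number of arrays limits the precision.

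Same-numbered samples come from the same mouse, and the correlation of their deviations from group means ran from -0.19 to 0.15. Alternatives were normexp correction, median centring, the deposited ratios, leaving out dim probes, no fold limit, slide or mouse as a block, and leaving out the third liver slide or each mouse. Likeness without that slide was added after seeing the data. All probes of the members are named, pathway genes only where called, with Cyp1a1 always. Members, lists and tests were chosen with earlier results of these data known. The analysis was tested on simulated data. The arrays give no probe positions or sequences in the files used here.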

Additional observations from a re-analysis of the deposited data

Results flagged for a closer look

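In 11 of 120 groups (10 probes in 12 groups) 1 array lay apart from the rest by Dixon's criterion, which flags about 1 group in 20 by chance. Vehicle mouse 5 in liver, the vehicle array on the third slide, accounts for 6 of the 11: Ahr probe 1 at 0.29 against 0.92 to 1.10 in the other vehicle livers, Ahr probe 2 at -0.39 against 0.09 to 0.16, Tiparp probe 1 at -0.68 against -2.41 to -2.29, Tiparp probe 2 at -0.0091 against -1.55 to -1.32, Aldh3a1 probe 1 at -0.23 against -1.37 to -1.16, and Aldh3a1 probe 2 at -0.028 against -1.24 to -0.99. On that slide 10.7 to 12.9% of probes were well above background, and its part in these values was not tested.

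In lung the others were Ahrr probe 1 in vehicle mouse 2, at -0.14 against -0.54 to -0.46, Arnt probe 1 in high-dose mouse 16, at 0.63 against 0.15 to 0.28, and Aldh3a1 probe 1 in medium-dose mouse 14, at 0.60 against 0.09 to 0.21. In forestomach they were Tiparp probe 2 in high-dose mouse 20, at 0.42 against -0.63 to -0.40, and Arnt probe 1 in medium-dose mouse 12, at -0.66 against -0.35 to -0.32. Forestomach mouse 20 also had the highest high-dose Cyp1a1 (7.33) and Ahrr (1.41) of that tissue.

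A difference between tissues passed the test for Ahrr probe 1, whose high-dose change was larger in lung than in liver by 2.89 and larger in lung than in forestomach by 2.70.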

How the results depend on the processing

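The high-dose and trend calls of Ahrr in lung, and its 2 tissue differences, held under every alternative run, without each mouse included (high dose 2.71 to 3.14 and 2.83 to 3.54). The count of member probes called at the medium dose in lung, 1, became 0 with median centring, the deposited ratios and slide as a block, and 0 to 1 without each mouse. The lung counts at the high dose and in the trend, 3 each, ran from 1 to 3 without each mouse, the step from medium to high dose from 0 to 3 (1 with slide as a block), and the lung and liver effect difference from 1 to 2 (2 without mouse 16, where Ahrr probe 2 was called too). The liver and forestomach vehicle count, 4, became 2 with median centring. With the mouse as a replicate block, which pairs tissues of 1 animal, Ahrr differed between lung and liver by 2.89 (adjusted p = 0.0070), Ahrr probe 1 became called between vehicle lung and forestomach, and the block changed no other call of a member probe.

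Median centring reversed the high-dose lung value of Ahr (0.18), Arnt (0.40) and Aldh3a1 (0.032), the liver value of Arnt (-0.96), Ahrr (-0.061), Tiparp (-0.56) and Aldh3a1 (-0.83), and the forestomach value of Ahr (0.21), all on probe 1 and none called. It also raised the probes called at the high dose in lung from 807, 71.3% of them higher, to 3504, 98.9% higher, those at the medium dose from 261 (77.8% higher) to 402 (98.5%), those of the lung trend from 683 to 2647, and those of forestomach from 39 to 143, and it lowered the count for the lung and forestomach effect difference from 425 to 205, for the step from medium to high dose in lung from 102 to 44, and for vehicle levels with liver from 12990 to 5529 (lung) and 10413 to 4181 (forestomach). With no fold limit 374, 1054 and 3431 probes were called at the 3 doses in lung in place of 192, 261 and 807. With slide as a block, or without the third liver slide, liver counts over all probes became 58 or 210 at the medium dose (0) and 154 or 493 in the trend (5), and the lung and liver effect difference had 720 or 581 (174). Without the third liver slide the liver values of Ahr (0.038) and Aldh3a1 (-0.10) reversed. Leaving out mice 1, 4, 5, 19 or 20 turned Arnt in lung (-0.095 to 0.023), and leaving out mouse 3 turned Aldh3a1 in forestomach (-0.095 to 0.13). The cause was not tested. With 4 or 5 mice a group and several probes near background, changes smaller than the intervals given could not be detected.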
